A study of Mus musculus with 47 samples.

Results

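The change between day 14 and day 21 of doxycycline treatment was followed in 4 clones of reprogramming mouse cells titled SI. The comparison used 8 of the 47 RNA sequencing libraries of the series. These were SI clones 1 to 4 after 14 days with doxycycline and the same 4 clones after 21 days with it, with 0 days without the drug at either time, so that each clone was its own control. The starting cells were secondary embryonic fibroblasts of the mouse, in which doxycycline itself starts reprogramming. The drug was present in both groups, and a difference between them is one of 7 further days of exposure and culture. Each clone is 1 line. The p-values rest on 4 lines, and the test draws the variance of each gene toward that of other genes at similar levels. The labels do not spell out SI, and the sources used here do not give the transgenes, their promoter or the strain. Where other groups are used for comparison, they are SI clones after 21 days with the drug and 1 or 2 days without it (day 22 and day 23), SI clones after 27 days with it (day 27), 4 clones titled SC at day 14 and day 21 under the same drug schedule, and 3 libraries of feeder mouse embryonic fibroblasts without doxycycline.

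Reprogramming of fibroblasts is usually driven by the transcription factors Pou5f1, Sox2, Klf4 and Myc. The fibroblast programme of extracellular matrix, contractile proteins and mesenchymal regulators is shut down first, epithelial adhesion genes come on, and the network of pluripotency regulators around Nanog is switched on in stages, with some genes appearing only in cells that are close to independence from the transgenes. Fibroblasts also answer interferon: the receptor signals to factors that include STAT2 and IRF9, which bind a short element in the promoters of interferon-stimulated genes, and pluripotent cells are known for a weak answer of this kind.

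Levels are given in RPKM (reads per kilobase of gene, relative to the number of reads in the library), the unit that the deposited values fit, since the table names none. Differences are on the scale of log2(RPKM + 1), as day 21 minus day 14 within each clone, and this scale understates the change of genes at low levels. In the 8 libraries the RPKM summed to between 214028.7 and 236436.8, and 11531 to 11693 genes reached 1 RPKM. The sources used here give no read totals. The spacing of the lowest values implied that 1 read in a gene of 1 kb was worth 0.0102 to 0.0275 RPKM in 6 of the 8 libraries, up to a whole multiple. No such spacing could be read from clones 1 and 2 at day 14. RNA from bulk cultures cannot tell fewer cells of a type from less RNA per cell, and the values do not separate endogenous from drug-driven copies of a gene.

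Of the 7 genes that passed the test as lower at day 21, Isg15, Usp18 and Ifit1 are on the list of interferon response genes, and all 7 fell in each of the 4 clones. Among 11738 genes tested, 7 were lower at day 21 at an adjusted p below 0.05 in the paired fit (0.0596% of the genes tested) and 2 were higher (0.017%). The 7 lower genes were Isg15, Usp18, Ifit1, Rtp4, Irgm1, Slfn2 and 3110039I08Rik, and the 2 higher ones were Trpc6 and Six3. The table identifies them as ENSMUSG00000035692 (Isg15), ENSMUSG00000030107 (Usp18), ENSMUSG00000034459 (Ifit1), ENSMUSG00000033355 (Rtp4), ENSMUSG00000046879 (Irgm1), ENSMUSG00000072620 (Slfn2), ENSMUSG00000074415 (3110039I08Rik), ENSMUSG00000031997 (Trpc6) and ENSMUSG00000038805 (Six3). At an unadjusted p below 0.05 there were 1747 higher and 1341 lower genes. The fit was limma's linear model with the clone as a block, adjusted by Benjamini-Hochberg. These calls are close to the threshold: the fit without the clone called 0 genes (2313 at an unadjusted p below 0.05), and leaving out clone 2 also called 0 (1800 at an unadjusted p below 0.05). After rescaling the libraries by their median ratio 3 genes were called, all lower. A fit over all 20 SI libraries of 5 times, which assumes the same spread at each time, called 2142 genes higher (18.2%) and 1678 lower (14.3%) for the same contrast, including all 9.

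The clones did not change by the same amount. Clone 2 moved most, with 2415 of the tested genes changed at least 2-fold on this scale, against 804 in clone 1, 805 in clone 3 and 279 in clone 4. The changes of different clones across genes correlated at r = 0.77 for clones 2 and 4, 0.72 for clones 1 and 4, 0.59 for clones 2 and 3, 0.51 for clones 1 and 2 and 0.37 for clones 3 and 4, but at -0.15 for clones 1 and 3. These are descriptions over 11738 genes, which are not independent. In all, 2410 genes were higher at day 21 in each of the 4 clones (20.5% of the genes tested) and 1930 were lower in each (16.4%). This split rests on the scaling: after rescaling by the median ratio 1953 were higher (16.6%) and 2346 lower (20%), and the median of all genes went from 0.05 to -0.01. For 360 genes (3.07%) every day 21 library lay above every day 14 library, and for 201 (1.71%) every day 21 library lay below.

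**Figure D1:**
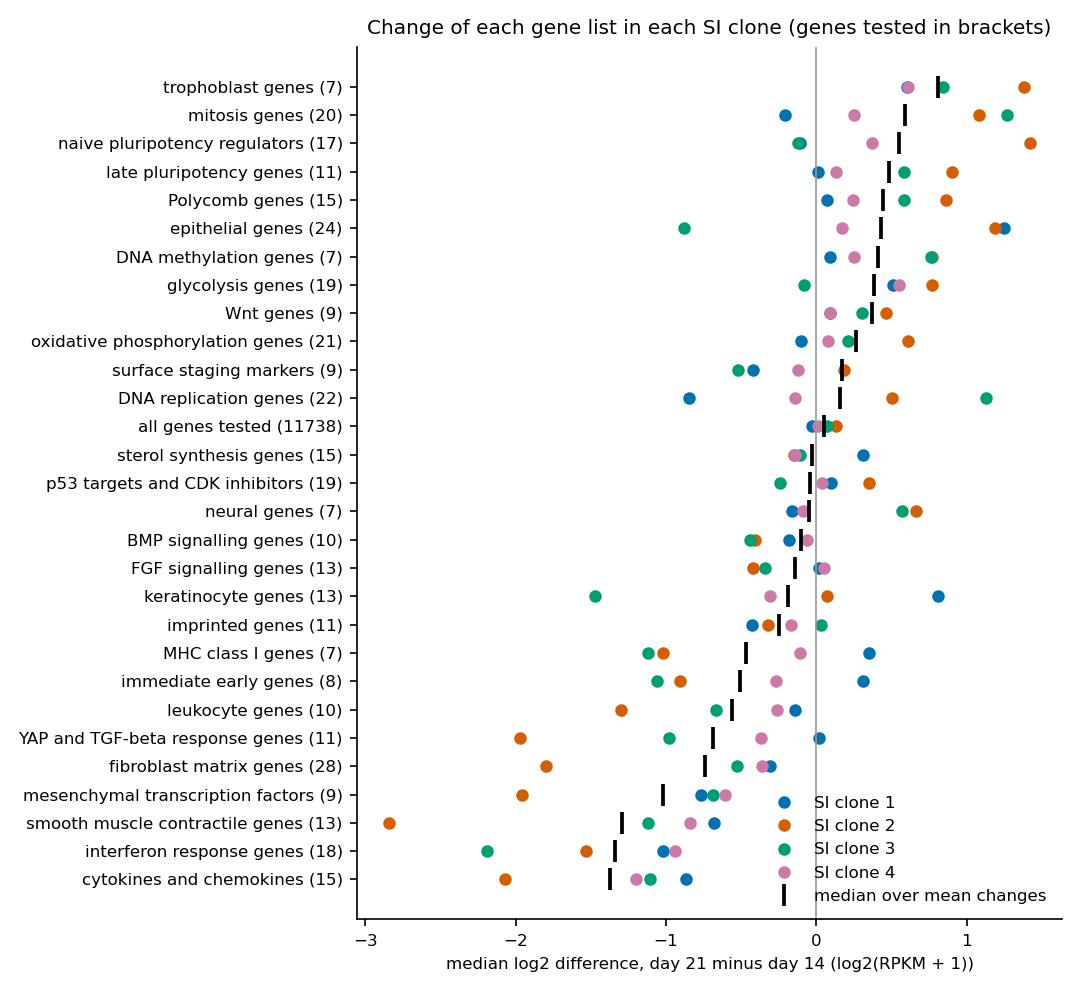
Each row is a gene list with at least 7 tested members (28 lists, and all genes tested), and the horizontal axis is the median log2 difference, day 21 minus day 14, in log2(RPKM + 1). Coloured points are the medians in SI clones 1 to 4 and black bars are the medians of the members' mean changes. The interferon, cytokine, smooth muscle, mesenchymal and fibroblast lists lie left of 0 in all 4 clones, and the epithelial list spans 1.25 in clone 1 to -0.88 in clone 3.

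Of the 4 genes called lower that have an entry in the RefSeq promoter table, 3 hold the core of the element through which STAT2 and IRF9 are known to act, and their stretches are printed for that reason. The search used the letters GAAA, then any 2 bases (NN), then GAAA again, on both strands, over 250 bases before to 50 bases after the start site in that table (build GRCm38.p6), and overlapping matches were each counted. The stretches are given 5′ to 3′ on the strand of the gene, end before the start site, and carry the matches in capitals. They cover chr4:156200827-156200946 on the minus strand for Isg15, chr19:34640735-34640854 on the plus strand for Ifit1 and chr11:48871421-48871500 on the minus strand for Irgm1.
Isg15: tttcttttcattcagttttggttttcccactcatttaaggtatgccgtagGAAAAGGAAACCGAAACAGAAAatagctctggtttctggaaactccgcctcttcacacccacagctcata
Ifit1: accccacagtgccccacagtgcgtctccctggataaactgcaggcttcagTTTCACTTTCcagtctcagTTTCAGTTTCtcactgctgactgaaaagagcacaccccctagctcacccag
Irgm1: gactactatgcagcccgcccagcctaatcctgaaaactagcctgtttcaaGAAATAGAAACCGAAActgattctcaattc
The Isg15 stretch holds 3 overlapping matches on the strand of the gene, the Irgm1 stretch 2, and the Ifit1 stretch 2 on the opposite strand. Slfn2 had an entry and no match in this window, and Usp18, Rtp4 and 3110039I08Rik had no entry. Counted by gene, over any of its entries, the element was present in 1079 of 27025 genes of the table (3.99%). It was present in 328 of 9031 tested genes with an entry (3.63%) and in 9 of the 15 tested interferon response genes with an entry (60%). Those without a match were Irf7, Irf9, Ifit2, Oasl2 and Ifi44, which were lower in all 4 clones, and Xaf1, which was not. Bst2 and Ddx58, also not lower in every clone, held a match. Whether the element goes with the falls was not tested. A match is a description of the letters and shows no binding.

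Isg15 encodes a ubiquitin-like protein that is attached to other proteins after interferon. In clones 1 to 4 it stood at 32.70, 98.08, 237.87 and 44.81 RPKM at day 14 and at 3.68, 12.02, 31.40 and 5.16 at day 21. Every day 21 library lay below every day 14 library, and the difference was -2.89 ± 0.12 (limma's moderated SE, n = 4 clones; limma adjusted p = 0.00273). A value after ± is this SE throughout, unless SD is written. It draws on other genes and is not the spread of the 4 clone changes alone. The order of the clones was the same at both times, with clone 3 highest and clone 1 lowest. Isg15 was also the only gene still called without a filter on low values, or without clone 3 (adjusted p = 0.00553 and 0.0349), while without clone 2 its adjusted p was 0.0913.

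Usp18, the protease that removes ISG15 and dampens interferon signalling, went from 8.58, 28.31, 72.82 and 11.58 RPKM to 0.78, 2.25, 6.56 and 0.99, a difference of -2.89 ± 0.18 (limma adjusted p = 0.0169). Ifit1, which binds foreign RNA, went from 6.93, 19.91, 63.74 and 8.30 to 0.61, 1.71, 4.79 and 0.99 RPKM, or -2.74 ± 0.24 (limma adjusted p = 0.0483). Both genes were lower in each clone and the groups did not overlap. Rtp4, an interferon-induced chaperone of membrane receptors, went from 5.66, 17.78, 33.05 and 8.85 to 0.93, 3.26, 5.41 and 1.52 RPKM (-2.08 ± 0.15; limma adjusted p = 0.023). Irgm1, an immunity-related GTPase, went from 7.44, 19.59, 34.26 and 9.60 to 1.36, 2.30, 5.82 and 2.21 RPKM (-2.14 ± 0.19; limma adjusted p = 0.0483). Slfn2, a member of the Schlafen family, went from 5.58, 22.45, 33.07 and 9.59 to 1.09, 2.62, 7.23 and 1.73 RPKM (-2.09 ± 0.19; limma adjusted p = 0.0483). Clones 3 and 2 were the highest at day 14 in all 6 genes, and of these 6 only in Slfn2 did the groups overlap, between clone 1 at day 14 and clone 3 at day 21.

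**Figure D2:**
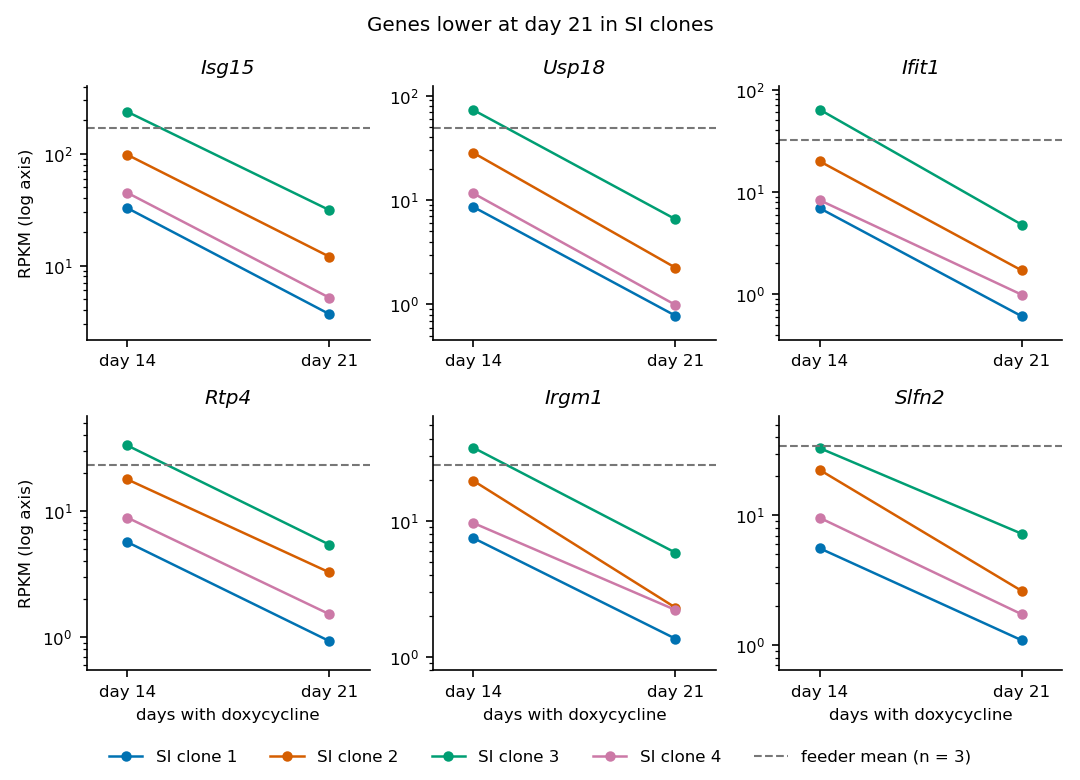
RPKM (log axis) of 6 called genes at day 14 and day 21 of doxycycline, 1 line per SI clone, with the mean of the 3 feeder libraries dashed. All lines run downward, clone 3 starts highest and lies above the feeder mean of Isg15 (171 RPKM) at day 14, and every day 21 value lies below the feeder mean.

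The seventh lower gene, 3110039I08Rik, has no given name and is shown because it was among the calls. It went from 7.56, 14.88, 14.84 and 15.88 RPKM to 2.72, 4.45, 5.33 and 5.85 (-1.34 ± 0.13; limma adjusted p = 0.0483).

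The list of interferon response genes as a whole showed the same direction. Of its 20 members 18 were tested, 3 were called lower and 0 higher, and 15 were lower in all 4 clones, beside 16.4% of all genes tested. For 13 of the 18 every day 21 library lay below every day 14 library, beside 1.71% of all genes. The exceptions were Bst2, Ddx58 and Xaf1, which were not lower in every clone. The list's median difference was -1.34, and it was -1.02, -1.53, -2.19 and -0.94 in clones 1 to 4, where the median of all genes tested was 0.05. The list was chosen with earlier results of these data known.

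Irf7, the factor that amplifies the type I interferon response, stood at 4.24, 11.86, 24.73 and 5.31 RPKM at day 14 and 1.01, 1.81, 3.55 and 1.14 at day 21 (-1.91 ± 0.22; limma adjusted p = 0.0997). Oasl2, an oligoadenylate synthetase relative, stood at 6.57, 16.18, 39.09 and 8.41 and then 1.71, 2.61, 3.68 and 1.64 RPKM (-2.17 ± 0.27; limma adjusted p = 0.0997). Neither passed the threshold, although their groups did not overlap. The signalling factors Stat2 and Irf9 were picked for their role after the values were seen. Irf9 differed by -0.98 ± 0.13 (limma adjusted p = 0.0997) and Stat2 by -1.05 ± 0.33 (limma adjusted p = 0.137). Stat2 shows how the clones differed: it went from 6.70 to 6.39 RPKM in clone 1 and from 33.14 to 6.59 in clone 3, so that all clones ended between 5.50 and 6.59.

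The rule for the largest falls also reached 4 genes outside the list, known to be induced by interferon, that did not pass the threshold and were lower in 4 of 4 clones. They were Parp9 at -1.47, Samd9l at -1.88, Ifi204 at -1.70 and Apol9b at -1.95 (limma adjusted p = 0.0997 for each). Ifitm3, which blocks virus entry and was the most abundant member of the list, stood at 190.42, 442.66, 557.06 and 223.70 RPKM and then 186.47, 212.07, 284.52 and 152.04, with overlapping groups (-0.65 ± 0.22; limma adjusted p = 0.143). Genes of MHC class I, which present peptides to T cells and also answer interferon, differed less, with a median of -0.47 over 7 tested members and 0 called. Of the 7, 2 were lower in all 4 clones, beside 16.4% of all genes. Psmb8, an interferon-induced proteasome subunit, was at -1.26, the light chain B2m at -0.63 and the heavy chains H2-D1 and H2-K1 at -0.57 and -0.18, and H2-K1 was higher at day 21 in clone 1 (30.26 and 46.10 RPKM).

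Feeder fibroblasts expressed the interferon genes too, and the median of the fibroblast markers was also below 0 in each clone. The median ratio of the interferon list to the feeder mean was 0.349, 0.831, 1.60 and 0.416 in clones 1 to 4 at day 14 and 0.110, 0.205, 0.290 and 0.151 at day 21. For the 28 fibroblast matrix markers it was 0.285, 0.808, 0.716 and 0.276 and then 0.254, 0.237, 0.483 and 0.202. The summed RPKM of these 28 markers ran from 3358.1 to 9521.9 at day 14, from 2669.1 to 5770.9 at day 21 and from 12230.2 to 12659.2 in feeders, and none of them was at 0 in any of these libraries. Within clones the 2 lists did not move in step: the interferon median lay below the fibroblast median in clone 1 (-1.02 against -0.31), clone 3 (-2.19 against -0.53) and clone 4 (-0.94 against -0.36), and not in clone 2 (-1.53 against -1.80). The part of fibroblast RNA in these results was not tested beyond these values.

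At day 27, still with the drug, the interferon genes stood below their day 14 level, and 2 days after withdrawal they stood between the day 21 and the day 14 level. The mean of Isg15 was 103 RPKM at day 14, 13.1 at day 21, 18.0 and 65.4 at day 22 and day 23 and 25.3 at day 27, beside 171 in feeders. Usp18 had a mean of 30.3, 2.65, 4.70, 17.9 and 6.04 RPKM at the same 5 times and 49.3 in feeders. The mean level of the list, in log2(RPKM + 1), was 4.15 at day 14, 2.67 at day 21, 2.84 at day 22, 3.48 at day 23 and 3.05 at day 27. These later values are given as levels, without a test.

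The 2 genes called higher encode a transcription factor and an ion channel. Trpc6, a calcium-permeable channel, stood at 5.49, 0.85, 0.74 and 3.08 RPKM at day 14 and at 13.22, 4.88, 4.03 and 10.33 at day 21 (1.45 ± 0.14; limma adjusted p = 0.0484). It was higher in each clone although the groups overlapped, since clone 1 began above the day 21 values of clones 2 and 3. Six3, a homeobox factor of the early forebrain and eye, stayed below the mean of 5 RPKM set for naming and is shown because it was called. It stood at 0.52, 0.13, 0.14 and 1.01 RPKM and then 3.90, 2.18, 1.56 and 4.72, with no overlap (1.46 ± 0.14; limma adjusted p = 0.0483). Feeders had a mean of 0.293 RPKM of Trpc6 and 0 of Six3. At day 27 Six3 had a mean of 2.47 and Trpc6 of 6.23 RPKM, between their day 14 and day 21 means. With a pseudocount of 0.1 only Six3 of the pair was called.

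The naming rule reached 11 further genes that were higher in 4 of 4 clones and did not pass the threshold (limma adjusted p from 0.0997 to 0.114). They had the smallest p among higher genes with a mean of at least 5 RPKM, with predicted genes passed over, and lower genes such as Irf7 had a p as small. Fbxo15, a target of Pou5f1 and Sox2 used as a reprogramming reporter, stood at 4.48, 0.86, 0.25 and 1.87 RPKM at day 14 and at 17.11, 19.41, 6.96 and 10.35 at day 21, with no overlap (2.46 ± 0.29). Abca1, a cholesterol exporter, stood at 27.97, 10.72, 9.78 and 11.54 and then 69.77, 40.63, 21.53 and 33.47 RPKM (1.41 ± 0.16). Slc2a3, a high-affinity glucose transporter, stood at 62.83, 17.69, 16.19 and 43.89 and then 186.59, 116.73, 50.79 and 112.03 RPKM (1.78 ± 0.24). In all 3 genes clone 3 reached the lowest level at day 21. The others were Enpp3 at 2.41, Barx1 at 2.20, Sprr2b at 1.87, Jph1 at 1.36, Clic5 at 1.32, Shisa2 at 1.30, Serinc5 at 1.14 and Heg1 at 0.93.

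Fibroblast, contractile and mesenchymal genes stood lower at day 21 in most clones, with none called in the paired fit. Of the 28 fibroblast matrix genes, 21 were lower in all 4 clones and 0 higher in all 4. The list's median was -0.74, and in clones 1 to 4 it was -0.31, -1.80, -0.53 and -0.36. Of 13 tested smooth muscle contractile genes 11 were lower in all 4 clones (median -1.29), and of 9 mesenchymal transcription factors 8 were (median -1.02), beside 16.4% of all genes. In the fit over all 20 SI libraries 15, 11 and 7 members of these lists were lower past the threshold, and 0 were higher, beside 14.3% of all genes lower.

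Thy1, a surface glycoprotein of fibroblasts that is lost early in reprogramming, stood at 120.26, 418.02, 421.55 and 146.87 RPKM at day 14 and at 59.62, 86.09, 264.28 and 84.68 at day 21 (-1.18 ± 0.29; limma adjusted p = 0.114). Clone 3 kept the highest Thy1 at day 21, above both day 14 values of clones 1 and 4. S100a4, a calcium-binding protein of motile fibroblasts, differed by -1.52 ± 0.32, the membrane protease Mmp14 by -1.08 ± 0.28 and the collagen chain Col1a1 by -0.75 ± 0.30. Col1a1 stood at 468.33, 1309.64, 1058.93 and 401.74 and then 413.53, 376.04, 665.07 and 310.49 RPKM, and differed most in clones 2 and 3.

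Among the contractile genes Acta2, smooth muscle actin, stood at 288.58, 1202.89, 1051.42 and 291.86 RPKM and then 173.27, 156.23, 484.30 and 109.11 (-1.55 ± 0.37; limma adjusted p = 0.114). The myosin light chain Myl9 differed by -1.91 ± 0.39, the actin-binding Tagln by -1.56 ± 0.38 and the enteric actin Actg2 by -0.93 ± 0.17. In Acta2 and Tagln clone 2 shared a high level with clone 3 at day 14 and lay close to clones 1 and 4 at day 21, when clone 3 was the highest. Among mesenchymal regulators Twist2 differed by -1.63 ± 0.35, Prrx1 by -1.30 ± 0.31 and Snai2 by -1.02 ± 0.25, each lower in 4 of 4 clones, and Snai1, the founding member of the Snail family in mesenchymal transition, by -0.34 ± 0.24 with clones 1 and 4 close to 0 change. YAP and TGF-beta response genes had a median of -0.69 with 4 of 11 lower in all 4 clones, beside 16.4% of all genes. In this list Ankrd1 differed by -1.86 ± 0.37, while Ccn2 was higher at day 21 in clone 1 (64.16 and 184.21 RPKM) and lower in clone 2 (261.19 and 107.92).

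Cytokines and chemokines, which fibroblasts secrete, had the lowest median of the lists with at least 7 tested members, -1.37 over 15 tested members, with 11 lower in all 4 clones, beside 16.4% of all genes, and 0 called. Ccl2, which draws monocytes, stood at 56.08, 347.60, 450.49 and 149.41 RPKM at day 14 and at 8.94, 16.58, 167.16 and 40.69 at day 21 (-2.53 ± 0.46). Il6 stood at 5.72, 19.23, 26.57 and 11.79 and then 0.45, 0.56, 12.70 and 1.74 RPKM (-2.29 ± 0.40). The chemokines Cxcl1, Cxcl5 and Ccl7 differed by -2.32, -2.30 and -1.65, and limma's adjusted p was 0.114 for all of these genes. In each of the 5 genes clone 3 was the highest at day 21. Grem1, a bone morphogenetic protein antagonist of fibroblasts, differed by -1.57 ± 0.39, while the median of the 10 tested BMP signalling genes was -0.10.

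Leukocyte markers had a median of -0.56, with 6 of 10 lower and 1 higher in all 4 clones, beside 16.4% and 20.5% of all genes. Their summed RPKM over 13 markers ran from 79.5 to 214.3 at day 14 and from 104.8 to 160.6 at day 21, and from 226.3 to 239.8 in feeders, with none at 0. The sum was lower at day 21 in clone 2 (191.0 and 104.8) and clone 3 (214.3 and 160.6), higher in clone 1 (79.5 and 119.0) and level in clone 4 (106.7 and 107.9). The complement gene C1qa of macrophages stood at 3.25, 10.63, 10.45 and 3.77 RPKM and then 1.10, 1.85, 6.57 and 1.91 (-1.09 ± 0.25), and the macrophage lysozyme Lyz2 differed by -0.52 ± 0.26. Laptm5, a lysosomal membrane protein of blood cells, was the member higher in all 4 clones, at 28.37, 12.88, 12.64 and 28.59 and then 60.54, 42.13, 21.28 and 41.71 RPKM, above the feeder mean of 4.95. Of the 9 endothelial markers 3 were tested. Their median was -0.30, with 1 higher and 1 lower in all 4 clones, beside 20.5% and 16.4% of all genes. The receptor Tek differed by 0.98 ± 0.26 and was higher in each clone, and the summed RPKM of the 9 ran from 13.9 to 24.1 at day 14 and from 16.4 to 24.6 at day 21, with at most 2 of them at 0 in a library. What part these cells have in the results was not tested. Among the factors of the early response to growth signals, Fosl1 differed by -1.54 ± 0.31, Jun by -1.14 ± 0.30 and Egr1 by -0.74 ± 0.19, and the list's median was -0.51 with 0 of 8 called.

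The core reprogramming factors were abundant at both times and did not pass the test. Pou5f1 stood at 844.43, 301.16, 319.42 and 936.23 RPKM at day 14 and at 1110.92, 977.65, 539.37 and 1265.16 at day 21 (0.82 ± 0.26; limma adjusted p = 0.139), or by 0.53 without clone 2. Sox2 stood at 153.38, 51.77, 44.07 and 142.31 and then 154.70, 111.63, 81.96 and 147.86 RPKM (0.51 ± 0.23), Klf4 differed by 0.45 ± 0.19 and Myc by -0.14 ± 0.19. At day 14 clones 2 and 3 held less than clones 1 and 4 of all 4 factors, and these were the clones with more of the fibroblast markers. At day 21 clone 2 lay near clones 1 and 4 in Pou5f1. After withdrawal of the drug the means were 163 RPKM of Pou5f1 and 1.79 of Sox2 at day 22.

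Nanog, a central regulator of the pluripotency network, stood at 20.10, 4.26, 1.56 and 10.84 RPKM at day 14 and at 41.15, 33.44, 5.32 and 27.80 at day 21. It was higher in 4 of 4 clones by 1.57 ± 0.29 (limma adjusted p = 0.114), and clone 3 stayed below the day 14 values of clones 1 and 4. Esrrb, an orphan nuclear receptor of the naive state, differed by 0.73 ± 0.28 and was lower in clone 3 (0.95 and 0.79 RPKM). Members of the naive list also stood lower, none of them past the threshold: Klf2 stood at 1.43, 4.87, 4.30 and 2.74 and then 0.92, 1.17, 1.96 and 1.17 RPKM (-0.85 ± 0.19), Nr5a2 differed by -0.77 ± 0.19 and Stat3, the mediator of LIF signals, by -0.35 ± 0.15. In all, 3 of the 17 tested naive regulators were higher and 3 lower in all 4 clones, shares close to the 20.5% and 16.4% of all genes, with a median of 0.55. Klf2 and Stat3 were also expressed in feeders, at a mean of 6.00 and 26.4 RPKM, while Nr5a2 was not (0.0167).

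**Figure D3:**
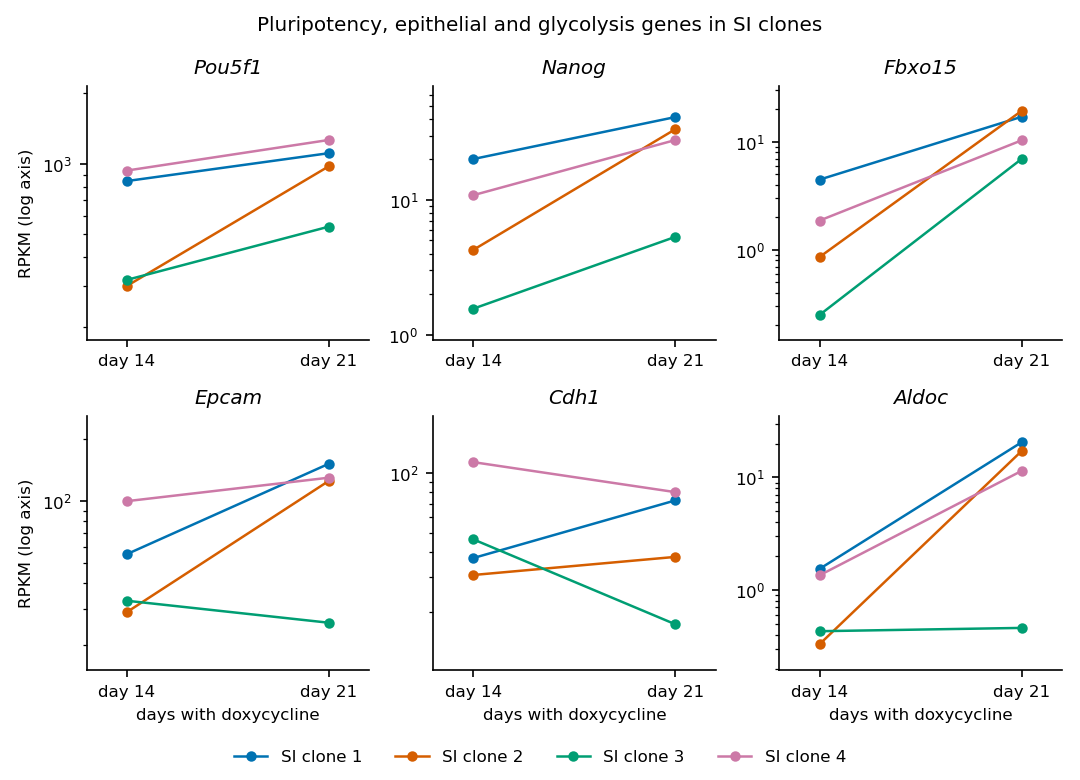
RPKM (log axis) of 6 genes at day 14 and day 21 of doxycycline, 1 line per SI clone. Lines of Nanog and Fbxo15 run upward in all 4 clones, the line of clone 3 runs downward for Epcam and Cdh1 (Cdh1 from 46.44 to 17.37 RPKM), and that of Aldoc runs upward in clones 1, 2 and 4 and is flat in clone 3.

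Genes of late pluripotency were a mixed group. Of 17 members 11 were tested, 5 were higher in all 4 clones and 0 lower, and the median was 0.48, beside 20.5% of all genes higher in all 4 clones. Alpl, the alkaline phosphatase used as a stain for pluripotent colonies, stood at 21.19, 8.87, 10.62 and 22.76 and then 42.51, 40.36, 14.59 and 34.41 RPKM (1.01 ± 0.28; limma adjusted p = 0.124). Gdf3, a TGF-beta family ligand, differed by 1.58 ± 0.45 and stood highest in clone 3 at day 21 (12.53 RPKM), and the co-receptor Tdgf1 by 1.31 ± 0.43, mostly in clones 2 and 4. L1td1, an RNA-binding protein of pluripotent cells, was already at 100.12, 32.21, 29.61 and 84.70 RPKM at day 14 (0.76 ± 0.32, and 0.47 without clone 2).

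The genes that mark the latest steps stayed near the floor at both times. Lin28a, an inhibitor of let-7 maturation, stood at 0.38, 0.10, 0.26 and 0.48 RPKM and then 0.28, 0.08, 0.41 and 0.31. Dppa4, a chromatin protein of pluripotent cells, was at most 0.11 at day 14 and 0.21 at day 21, and Dppa5a was at most 0.36 and 1.01. These 3 genes were under the filter of 1 RPKM in 4 libraries and were not tested. Utf1, a chromatin factor, stood at 1.30, 0.21, 0.24 and 0.95 and then 1.73, 1.75, 0.85 and 2.78 RPKM (0.74 ± 0.19), Zfp42 differed by 0.55 ± 0.27 (0.26 without clone 2) and the NODAL antagonist Lefty2 by 0.89 ± 0.33.

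Among chromatin genes none passed the threshold. Dnmt3a, a de novo DNA methyltransferase, stood at 7.87, 4.06, 3.58 and 6.04 RPKM and then 17.60, 14.04, 5.64 and 12.26 (1.02 ± 0.19; limma adjusted p = 0.114), while its relative Dnmt3b differed by -0.03 ± 0.24 and was at most 2.38 RPKM. Tet1, which oxidises methylcytosine, was at 1.25, 0.45, 0.36 and 0.81 and then 1.39, 1.47, 1.52 and 1.97 RPKM, with no overlap (0.61 ± 0.17). Of 7 tested DNA methylation genes 3 were higher and 0 lower in all 4 clones (median 0.41), and of 15 tested Polycomb genes 6 were higher and 1 lower (median 0.44), beside 20.5% and 16.4% of all genes. Cbx7 differed by 0.86 ± 0.18, Jarid2 by 0.76 ± 0.20 and Phc1 and Rnf2 by 0.61 and 0.53. Ezh1, a methyltransferase of histone H3, went from 2.30, 2.30 and 3.48 RPKM to 12.31, 8.82 and 8.14 in clones 1, 2 and 4, and from 2.88 to 2.38 in clone 3.

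Epithelial genes split the clones. The median of 24 tested members was 0.43, made of 1.25, 1.19, -0.88 and 0.17 in clones 1 to 4. Of the 24, 1 was higher and 1 lower in all 4 clones, beside 20.5% and 16.4% of all genes. Cdh1, the adhesion molecule of epithelia, stood at 37.41, 30.74, 46.44 and 113.60 RPKM at day 14 and at 72.93, 37.91, 17.37 and 80.26 at day 21, higher in clones 1 and 2 and lower in clones 3 and 4 (-0.16 ± 0.37; limma adjusted p = 0.803). Epcam stood at 55.32, 28.89, 32.77 and 100.12 and then 152.41, 125.84, 25.61 and 130.27 RPKM (0.89 ± 0.40). Cldn3, a tight junction protein, was higher in 4 of 4 clones, at 3.14, 0.71, 2.18 and 3.87 and then 17.17, 11.50, 2.38 and 12.16 RPKM (1.63 ± 0.43; limma adjusted p = 0.118), with little change in clone 3. Without clone 3 the Cdh1 difference turned to 0.25.

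Keratinocyte genes, which appear transiently in many reprogramming cultures, had a median of -0.19 over 13 tested members, with 0.81 in clone 1 and -1.47 in clone 3. Krt14, a basal keratin, stood at 3.76, 11.04, 87.91 and 47.85 RPKM at day 14 and at 10.87, 5.53, 9.61 and 25.70 at day 21, with the widest gap in clone 3 (-0.88 ± 0.63). Krt6a, a keratin of activated skin, stood at 26.29, 26.45, 154.24 and 153.46 and then 46.71, 27.80, 20.70 and 122.17 RPKM (-0.57 ± 0.56), and the desmosomal Dsg3 differed by -0.91 ± 0.44. Feeders had a mean of 0.0533 RPKM of Krt14 and 0.117 of Cdh1.

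Genes of cell division differed among the clones in sign. DNA replication genes had a median of 0.16 over 22 members, with -0.85 in clone 1, 0.50 in clone 2, 1.13 in clone 3 and -0.14 in clone 4. Mitosis genes had a median of 0.59 over 20, with -0.21, 1.08, 1.27 and 0.25. In all 4 clones 2 of the 22 replication genes and 4 of the 20 mitosis genes were higher, beside 20.5% of all genes. In both lists 0 were lower in all 4, beside 16.4%. Clones 2 and 3 began lower: Mki67, a marker of cycling cells, stood at 57.13, 17.73, 12.22 and 32.44 RPKM at day 14 and at 55.18, 36.89, 35.54 and 48.33 at day 21 (0.75 ± 0.26; limma adjusted p = 0.148). The helicase subunit Mcm6 stood at 74.60, 32.67, 28.41 and 69.09 and then 51.01, 61.75, 60.93 and 73.54 RPKM, lower at day 21 in clone 1 and higher in the others. Rrm1, the large subunit of ribonucleotide reductase, was higher in 4 of 4 clones (0.93 ± 0.20; limma adjusted p = 0.114), as were Ccnb2 at 0.90 ± 0.22 and Cenpf at 0.91 ± 0.22.

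The cell cycle inhibitors gave values on both sides of 0, with none called. Cdkn1b, which encodes p27, stood at 7.69, 4.95, 4.51 and 4.93 RPKM and then 20.17, 17.95, 7.01 and 14.87 (1.23 ± 0.21; limma adjusted p = 0.114), higher in each clone and least so in clone 3. Cdkn2b, encoding p15, stood at 7.21, 23.50, 26.92 and 11.64 and then 5.37, 5.56, 12.74 and 6.28 RPKM (-1.02 ± 0.25). Cdkn1a, encoding p21, differed by 0.15 ± 0.19 around a mean of 167 RPKM at day 14, and Cdkn2a, the locus of p16 and ARF, by -0.07 ± 0.16. Of 19 genes in the list of p53 targets and inhibitors 4 were higher and 4 lower in all 4 clones, close to the 20.5% and 16.4% of all genes. Among the p53 targets Mdm2 was at -0.87 ± 0.18 and Plk2 at -0.97 ± 0.19, while Sesn1 was at 0.82 ± 0.19.

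Among metabolic genes, Aldoc, an aldolase of glycolysis, was higher at day 21 in clones 1, 2 and 4 and level in clone 3. It stood at 1.54, 0.33, 0.43 and 1.35 RPKM at day 14 and at 20.51, 17.14, 0.46 and 11.42 at day 21 (2.32 ± 0.57; limma adjusted p = 0.114), and its mean at day 27 was 0.465. Of 19 glycolysis genes 6 were higher in all 4 clones and 0 lower (median 0.38, and -0.08 in clone 3), beside 20.5% and 16.4% of all genes, with Tpi1 at 0.61 ± 0.22, Pfkm at 0.64 ± 0.17 and the abundant pyruvate kinase Pkm at 0.20 ± 0.18. The mean level of the glycolysis list was 4.82 at day 14, 5.37 at day 21 and 4.76 at day 27. Of 21 genes of oxidative phosphorylation 7 were higher in all 4 clones and 0 lower (median 0.26), beside the same shares of all genes, and sterol synthesis genes had a median of -0.03. Aldoc, Ezh1 and Cdkn1b shared a high level at day 21 in clones 1, 2 and 4, a lower one in clone 3 and a low mean at day 27 (2.26 RPKM for Ezh1 and 6.94 for Cdkn1b). The likeness of these 3 genes was noticed after the values were seen.

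Genes of other lineages and signals gave values in both directions. Of 12 trophoblast genes 7 were tested (median 0.81), and 2 were higher and 0 lower in all 4 clones, beside 20.5% and 16.4% of all genes. Tfap2c stood at 4.49, 1.48, 0.96 and 3.42 and then 7.31, 7.34, 4.87 and 6.27 RPKM, with no overlap (1.16 ± 0.23). Gata2 differed by 1.05 ± 0.27 and Tead4 by 0.81 ± 0.26 (0.55 without clone 1 and 1.08 without clone 3). Tfap2c is a transcription factor of trophoblast and germ cells. Neural genes had a median of -0.05 over 7 tested members, with 2 higher and 2 lower in all 4 clones, beside 20.5% and 16.4% of all genes. Among them the RNA-binding Msi1 was at 0.76 ± 0.15 and the homeobox gene Pax6 at 0.85 ± 0.20, both under 4 RPKM. Stmn2, a regulator of microtubules, stood at 204.62 RPKM or more in clones 1 and 4 at both times. Imprinted genes stood on both sides of 0, with Plagl1 at 1.22 ± 0.23, Snrpn at 0.88 ± 0.22, Dlk1 at -1.08 ± 0.22 and Grb10 at -1.23 ± 0.33 (-0.78 without clone 2). The 9 tested Wnt genes had a median of 0.37, with 3 higher and 2 lower in all 4 clones, beside 20.5% and 16.4% of all genes. Among them the ligand Wnt5a was at -1.11 ± 0.25. The 13 tested genes of FGF signalling had a median of -0.14, with 2 higher and 4 lower in all 4 clones, beside 20.5% and 16.4% of all genes. Among them the ligand Fgf7 was at -1.27 ± 0.33 (-0.82 without clone 2) and Etv5, a target of FGF signals, at 0.94 ± 0.24. None of these passed the threshold. Ddx3y, on the Y chromosome, was present in all 8 libraries (4.07 to 24.01 RPKM).

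**Figure D4:**
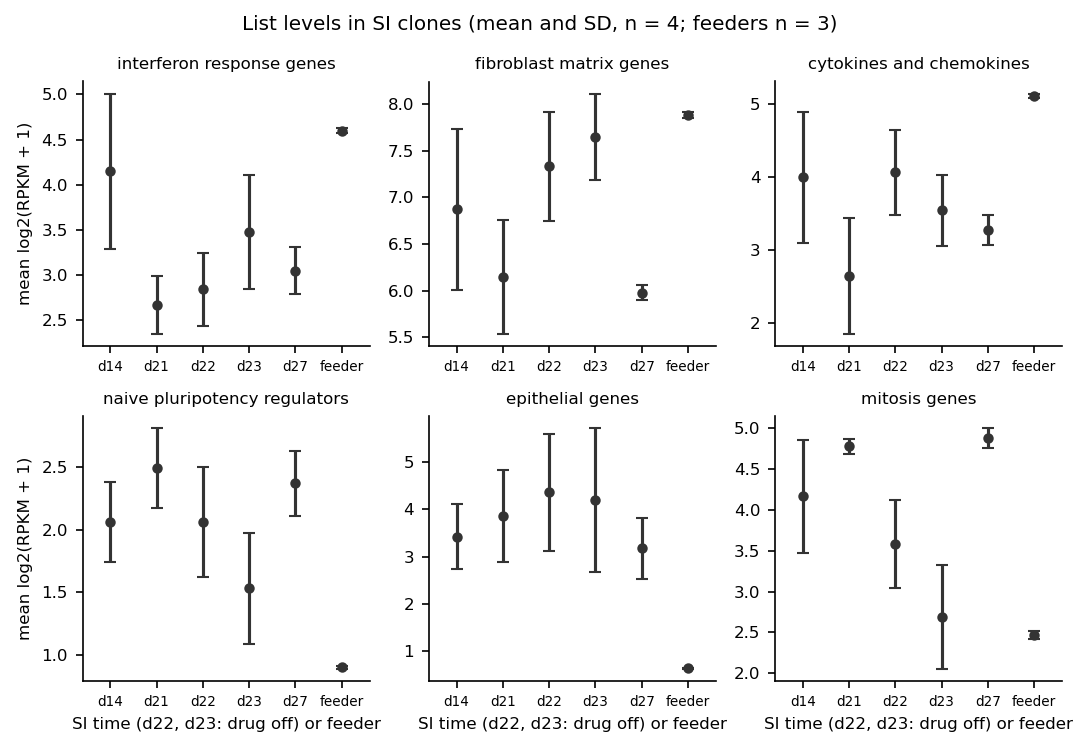
Mean log2(RPKM + 1) over the tested members of 6 gene lists in SI clones at day 14, 21, 22, 23 and 27 (points, mean of 4 clones; bars, SD) and in 3 feeder libraries; vertical axes differ and do not start at 0. The interferon list goes from 4.15 at day 14 to 2.67 at day 21, and the fibroblast list from 6.87 to 6.15 and then to 7.65 at day 23, after 2 days without the drug.

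For several lists the level at day 27 lay closer to day 21 than to day 14. The fibroblast list had a mean level of 6.87 at day 14, 6.15 at day 21 and 5.98 at day 27, the mitosis list 4.16, 4.77 and 4.87, and the naive list 2.06, 2.49 and 2.37. The epithelial list did not, with 3.42, 3.85 and 3.17. Without the drug the fibroblast list stood at 7.33 and 7.65 at day 22 and day 23, near the feeder level of 7.88.

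The same interval was compared with the SC clones to see which changes differed between the classes. The difference of the changes, SI minus SC, was tested in 12325 genes over 16 libraries with limma, and 0 passed the threshold (0%), with 577 at an unadjusted p below 0.05 and a lowest adjusted p of 0.39. The fit without the clone block also called 0. The mean changes of SI and SC clones correlated across the 11738 genes at r = 0.84, as a description. The interferon list had a median change of -1.34 in SI and -1.43 in SC, and Isg15 changed by -2.89 in SI and -3.23 in SC (difference 0.34 ± 0.22).

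Among the largest differences in the listed genes were those of late pluripotency genes, and they did not pass the adjustment. Of 14 tested members of that list 8 had a lower change in SI than in SC at an unadjusted p below 0.05, beside 3.06% of all genes, and 0 a higher one, beside 1.62%. The filter of this test ran over the SI and SC libraries together, where 14 members passed, against 11 in the SI libraries alone. Lin28a and Dppa5a, near the floor in SI, were among those that passed only through the SC libraries. Their lower change in SI was thus partly set by the filter. The count of 8 is a description only, and its distance from 3.06% is not read as a result. For the same reason no p-value is given for Lin28a and Dppa5a. Lin28a went from 1.65 ± 0.884 (SD, n = 4) to 23.8 ± 17.6 RPKM in SC, against 0.305 ± 0.164 and 0.27 ± 0.138 in SI (difference of changes -2.83 ± 0.53). Dppa5a went from 2.81 ± 2.65 to 162 ± 146 RPKM in SC and from 0.105 ± 0.172 to 0.522 ± 0.362 in SI (SD, n = 4; difference -4.34 ± 1.00). Utf1, also of the late list, showed the same direction (-2.11 ± 0.60). So did Lefty2 (-3.11 ± 0.69) and Zfp42 (-2.54 ± 0.76) of the naive list. From the DNA methylation list Dnmt3b (-2.86 ± 0.76) and Tet1 (-1.71 ± 0.44) did as well. Each of these had a limma adjusted p of 0.761. The SC libraries at day 21 were spread widely, from 2.52 to 45.12 RPKM for Lin28a, and the lowest SC value lay above all SI values at that time. For Klf2 the SI change was -0.85 and the SC change 0.64 (difference -1.49 ± 0.47). In the other direction Actg2 differed by 1.42 ± 0.39, as its change was -0.93 in SI and -2.35 in SC.

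**Figure D5:**
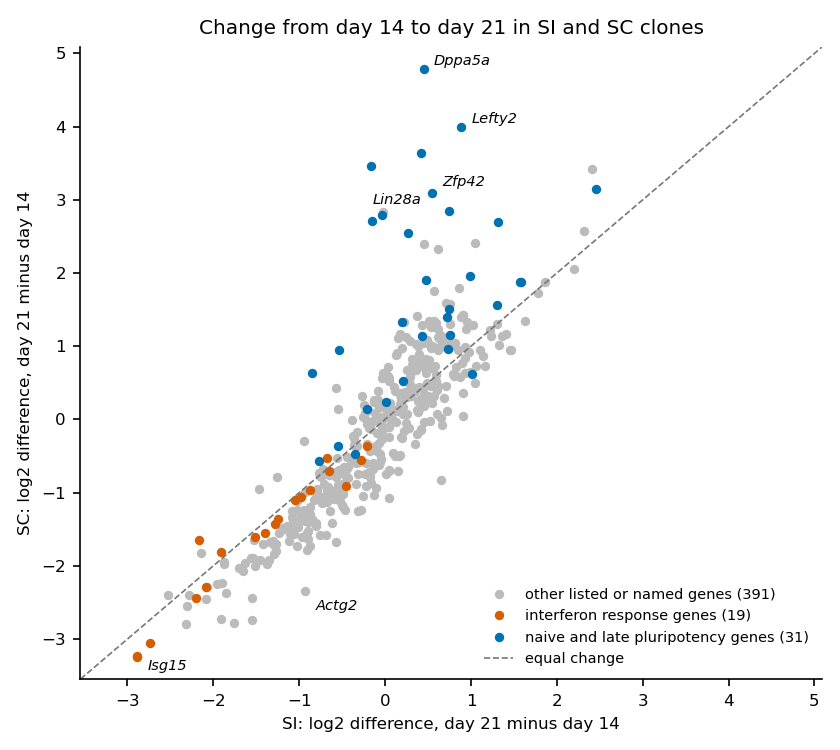
Each point is 1 of 441 listed or named genes tested for a difference between the classes, with the mean log2 difference from day 14 to day 21 in SI clones on the horizontal axis and in SC clones on the vertical axis; the dashed line marks equal change. Interferon response genes (19, orange) lie near the line, and several naive and late pluripotency genes (31 in all, blue), among them Dppa5a, Lefty2, Lin28a and Zfp42, lie above it.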

How the data were processed

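Messenger RNA of 47 mouse libraries was sequenced by the authors from TruSeq libraries, per the labels' protocols. The deposited table held 22632 genes with 1 column per library. Its unit is not named. The values fit RPKM made by the authors, since RPKM times exon length in gigabases (GENCODE M21) summed to 0.888 to 0.964 in the 8 libraries, where reads in genes alone give at most 1. The submitters' processing notes name CASAVA 1.8 and the build mm9, with no role stated. Which aligner and filters the authors chose is not stated in the sources used here. Symbols came from M21 for 20701 genes, where 20750 had an ID in it, and 1931 genes kept the deposited symbol.

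Only genes with at least 1 RPKM in at least 4 of the libraries fitted were tested. For the fit over all 20 SI libraries this filter used only the 8 libraries of day 14 and day 21. The test was limma 3.58.1 in R 4.3.3 (lmFit and eBayes with a trend) on log2(RPKM + 1), two-sided. Benjamini-Hochberg adjustment ran over all genes tested, with a threshold of 0.05. The script was tested on simulated data with clone effects larger than the noise, which checks the code and not the choice of the pairing. The clone was a replicate block, since the same clone was sampled at both times. Deviations of same-numbered libraries from their group means correlated at 0.25, -0.36, 0.40 and 0.73 in clones 1 to 4, so clone identity, not these values, is the reason for the pairing. For the comparison with SC, the 8 clones were blocks and the term was the difference of changes. Alternatives were no block, a pseudocount of 0.1, no filter, rescaling by the median ratio, leaving out each clone and a fit over all 20 SI libraries.

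There were 35 gene lists with 515 entries, of which 508 were found. Members, lists and the comparison were chosen with earlier results of these data known. Genes were named by rule: up to 12 largest rises and 12 largest falls with a mean of at least 5 RPKM and the same sign in 4 clones, filled by unadjusted p, then the 4 smallest p per list, the most abundant other member and 20 fixed genes; exceptions are stated in the text. Predicted genes were passed over, and some genes are not reported here. Figures and tables used Python 3.11.15, pandas 2.3.3, numpy 2.4.6 and matplotlib 3.10.9.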

Additional observations from a re-analysis of the deposited data

Results flagged for a closer look

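A library was set apart where its gap to the nearest of the other 3 in its group of 4 was above Dixon's 95% critical share of the group's range (on log2(RPKM + 1)). This was looked at in 306 groups of 4 (genes named in the report and gene lists, at day 14 and day 21), and 21 met it, where chance gives about 1 in 20 groups. Of these, 14 were clone 3 at day 21, 6 clone 1 at day 14 and 1 clone 2 at day 21, and the genes share libraries, so the counts are not independent.

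Clone 3 at day 21 stood above the other clones in Mmp14 (76.39 RPKM), Snai2 (10.02), Tagln (372.71), Grb10 (15.45), H2-D1 (75.38) and Stat3 (18.76). It stood below them in Epcam (25.61 RPKM) and Perp (85.29), the latter a desmosomal protein. Among list levels in log2(RPKM + 1) it was high for fibroblast matrix genes (7.07), mesenchymal transcription factors (3.68), smooth muscle contractile genes (6.04) and leukocyte genes (2.81), and low for naive pluripotency regulators (2.01) and Polycomb genes (3.29).

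Clone 1 at day 14 stood above the others in Abca1 (27.97 RPKM), Gdf3 (4.30), Cdkn1b (7.69), Msi1 (1.79) and the level of the neural list (3.48), and below them in 3110039I08Rik (7.56 RPKM). Clone 2 at day 21 was set apart in the level of p53 targets and inhibitors (4.77).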

How the results depend on the processing

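The count of calls depended on the processing. Against 9 calls (2 higher, 7 lower) in the paired fit, there were 0 without the replicate block (0 higher, 0 lower), 15 with a pseudocount of 0.1 (1 higher, 14 lower), 1 without a filter (0 higher, 1 lower), 3 after rescaling (0 higher, 3 lower) and 3820 in the fit over all 20 SI libraries (2142 higher, 1678 lower). Leaving out 1 clone gave 0 to 5 calls, with 0 higher and 0 to 5 lower: 5 without clone 1, 0 without clone 2, 1 without clone 3 and 2 without clone 4. The adjusted p of the 9 genes was 0.246 for each without the block. With the same sign in all clones there were 2410 genes higher and 1930 lower among 11738 tested. Without a filter there were 2998 higher and 2900 lower, among 19294 tested. After rescaling the counts were 1953 higher and 2346 lower. Leaving out 1 clone, which asks for agreement in 3 clones only, gave 2457 to 3656 higher and 1980 to 2965 lower. The SI minus SC comparison called 0 genes under every alternative run. Of 125 genes checked, 7 changed sign in at least 1 setting, all of them uncalled: H2-K1 (-0.43 to 0.06 when 1 clone was left out, with the sign change without clone 3), Myc (-0.30 to 0.03, clone 1), Ccn2 (-0.88 to 0.08, and 0.05 without clone 2, clones 2 and 3), Cdh1 (-0.52 to 0.25, clone 3), Krt6a (-1.03 to 0.18, clone 3), Cdkn2a (-0.22 to 0.00, clone 1) and Ddx3y (-0.09 to 0.33, clone 2). Leaving out 1 clone moved the difference of 39 of the 125 genes by over 1.5 times, none of them called: 10 genes without clone 1, 33 without clone 2, 12 without clone 3 and 1 without clone 4. The causes were not tested. Read totals are not given, so depth limits the low genes to an unknown degree.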
